A study of Mus musculus with 24 samples.

Results

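The nuclear genes for the subunits of oxidative phosphorylation were followed through the differentiation of 3T3-L1 cells, with and without an inhibitor of sumoylation. Genes were chosen by name alone, as the symbols of the 5 complex families (Nduf, Sdh, Uqcr, Cox and Atp5 with their numbered or lettered members), and 84 of the 26995 gene symbols in the deposited tables were taken. Of these, 35 belong to complex I, 4 to complex II, 8 to complex III, 16 to complex IV and 15 to complex V, and Ndufa4 was placed in complex IV. The remaining 6 are no subunits of a complex: Atp5c1-ps and Uqcrh-ps1 are pseudogenes, Atp5s, Atp5sl and Cox7a2l are an ATP synthase factor, an assembly factor and a supercomplex factor, and Ndufa4l2 is a paralogue of Ndufa4. Subunits that the mouse mitochondrial genome encodes, and Cox4 genes such as Cox4i1, fall outside the naming rule.

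Electrons from NADH and succinate enter the inner mitochondrial membrane at complexes I and II, pass through complex III and cytochrome c, and reach oxygen at complex IV. The proton gradient that this flow builds is used by complex V, the ATP synthase. White adipocytes use mitochondria for ATP and for building blocks of lipid, and brown adipocytes also use the respiratory chain to make heat. Several complex IV subunits exist as a ubiquitous isoform and as an isoform of heart and skeletal muscle, of which Cox7a1 and Cox8b are also known from brown fat.

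3T3-L1 is a mouse embryonic fibroblast line that turns into adipocytes after a hormonal stimulus of dexamethasone, IBMX and insulin, with insulin medium from day 3 onward. Cells were held in DMSO or in 0.5 μM ML-792, which blocks the SUMO-activating enzyme, and were collected 2 days before induction (day −2) and at days 1, 3 and 7 after it. Each of the 8 conditions had 3 biological replicates, A, B and C, which gives 24 libraries of 1 cell line. Every library received 100 μM 4-thiouridine for 45 min before harvest, so that reads from new RNA could be told by their T to C conversions and are here called labelled. No library without 4-thiouridine was used here. The reads lie at the 3′ ends of RNAs, and a library held 13554718 to 27013352 total reads and 115709 to 820046 labelled reads over all 91830 3′UTR entries. In bulk libraries fewer cells expressing a gene and less RNA of it per cell cannot be told apart.

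Adipocyte markers rose and pre-adipocyte markers fell over the DMSO time course. Of 12 adipocyte markers tested, 12 were higher at day 7 than at day −2 in DMSO, and of 11 pre-adipocyte markers 11 were lower. Of all genes, 20.2% were higher and 19.6% lower. The summed level of the adipocyte markers was 1265 to 1342 reads per 1000000 (CPM) at day −2 and 39514 to 44009 at day 7. Of the macrophage and leukocyte markers, Ptprc had 0 reads over the 24 libraries and the others 1 to 117, apart from Csf1r with 384, Cd68 with 1200 and Cd14 with 3226. Their sum was 8.11 CPM on average at day 3 and 7.59 at day 7 in DMSO and 9.37 and 8.95 in ML-792, and at day 1 it was 10.04 in DMSO and 20.4 in ML-792. Pecam1 had 164 reads and the other 4 endothelial markers 6 to 21.

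Each gene was represented by its 3′UTR entry with the highest mean count. The entries of the 77 members tested in the DMSO time course were short, with a median length of 146 bases. The median was 1124 for the 10362 genes with a mean of 50 or more reads per library. The T content of the members' entries was 29.04 per 100 bases, against 29.02 for those genes. The members' entries lay on 19 chromosomes. Levels are given as such normalised CPM, which can be compared between libraries for a gene but not between genes, since the 3′ tags of different genes are not recovered alike.

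Some members had too few reads for a test. In the DMSO time course 77 of the 84 members passed the filter on low counts. Cox6b2, Cox7b2, Cox8c, Atp5g2, Atp5l, Ndufa4l2 and Uqcrh-ps1 did not. Cox8c had 1 read over the 24 libraries, and the other 6 had means of 0.3 to 9.5 reads per library. Cox6b2, Cox7b2 and Cox8c are the testis isoforms of their subunits. The counts of Ndufs5, Atp5j and Atp5h were also low for subunits that every cell uses, with means of 10.8, 9.0 and 47.7 reads. Means were low beside most members for Atp5l (0.8), Atp5g2 (9.5), Atp5g1 (112.7), Cox5b (173.8) and Cox7c (222.3) as well. Reads shared with near-identical gene copies could have been lost or misplaced in the counting, so all these values are uncertain.

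Promoter letters are shown for 5 genes that the results below turn on, the induced isoforms Cox7a1 and Cox8b, the ubiquitous isoform Cox6a1, and Uqcr11 and Atp5g3, which are among the strongest responders of complexes III and V. Each line gives the 200 bases before the RefSeq start of transcription in the mouse assembly GRCm38.p6, 5′ to 3′ on the strand of the gene, and capitals mark letters of a searched motif on either strand. Cox7a1 lies at chr7:30183971-30184170 on the plus strand, Cox8b at chr7:140900447-140900646, Cox6a1 at chr5:115348959-115349158, Uqcr11 at chr10:80406822-80407021 and Atp5g3 at chr2:73911327-73911526, all 4 on the minus strand.
Cox7a1: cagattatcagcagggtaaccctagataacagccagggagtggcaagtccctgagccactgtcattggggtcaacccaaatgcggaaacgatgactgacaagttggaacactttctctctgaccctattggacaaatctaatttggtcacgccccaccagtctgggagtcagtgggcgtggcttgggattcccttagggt
Cox8b: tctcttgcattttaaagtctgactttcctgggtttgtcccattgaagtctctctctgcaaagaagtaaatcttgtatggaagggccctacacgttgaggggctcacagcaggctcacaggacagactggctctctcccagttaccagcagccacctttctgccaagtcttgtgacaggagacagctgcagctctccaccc
Cox6a1: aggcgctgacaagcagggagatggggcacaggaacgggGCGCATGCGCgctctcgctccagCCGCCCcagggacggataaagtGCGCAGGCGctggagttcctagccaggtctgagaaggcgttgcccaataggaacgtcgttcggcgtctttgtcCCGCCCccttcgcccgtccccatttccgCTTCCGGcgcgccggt
Uqcr11: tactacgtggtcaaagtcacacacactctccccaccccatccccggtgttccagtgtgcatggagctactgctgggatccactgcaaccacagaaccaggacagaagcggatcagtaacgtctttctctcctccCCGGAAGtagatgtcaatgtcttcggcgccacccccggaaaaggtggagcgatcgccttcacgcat
Atp5g3: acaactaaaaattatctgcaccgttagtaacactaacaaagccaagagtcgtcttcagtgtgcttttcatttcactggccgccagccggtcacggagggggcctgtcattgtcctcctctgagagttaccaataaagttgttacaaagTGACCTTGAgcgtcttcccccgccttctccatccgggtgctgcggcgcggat

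The motifs searched on both strands were GCGCANGCG for NRF-1, CCGGAAG for GABP, AANATGGCG for YY1, GGGCGG for SP1 and TNAAGGTCA for the oestrogen-related receptors (ERR), and letters of different motifs may overlap. NRF-1 and GABP are known activators of respiratory chain genes. The window ran from 250 bases before to 50 bases after the start, 300 bases in all, and 69 of the 84 members had one, of which 3 were matched through an older symbol. The NRF-1 letters stood in 20 of these 69 windows (29.0%), against 7.03% of 27025 genes. GABP letters stood in 16 (23.2% against 9.93%) and YY1 letters in 11 (15.9% against 2.76%). SP1 letters were about as frequent among the members, 28 of 69 (40.6%), as among all genes (38.2%), and ERR letters stood in 3 members (4.35% against 1.43%). The windows of Cox7a1 and Cox8b held none of the 5 motifs, that of Cox6a1 held those of NRF-1, GABP and SP1, that of Uqcr11 those of NRF-1 and GABP, and that of Atp5g3 those of NRF-1 and ERR. Where a window holds a motif that is not capitalised above, its letters lie outside the stretch shown or reach beyond it. These matches describe letters in a window, and binding was not measured.

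The first comparison asked how the genes moved over differentiation in DMSO. As a group they rose, most of them between days 1 and 3. Summed over the 84 members, their share of all reads was 1.11% ± 0.04 (SD, n = 3) before induction, at day −2. It was 1.60% ± 0.13 on day 1, 3.25% ± 0.28 on day 3 and 3.61% ± 0.61 on day 7. At day 7 the libraries A, B and C held 3.16%, 4.31% and 3.37%, and library B thus stood above the others. The 9 later DMSO libraries lay above the 3 of day −2 (2.82% against 1.11% on average, p = 0.009091 by an exact permutation test on both sides, which can give no smaller value, 0.04546 after adjustment over 5 comparisons). By day −2 and day 7, complex I took 0.387% and 1.04% of the reads, complex II 0.0568% and 0.175%, complex III 0.123% and 0.551%, complex IV 0.225% and 0.774% and complex V 0.297% and 1.05%. The members outside the 5 complexes took 0.0193% and 0.0236%.

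**Figure D1:**
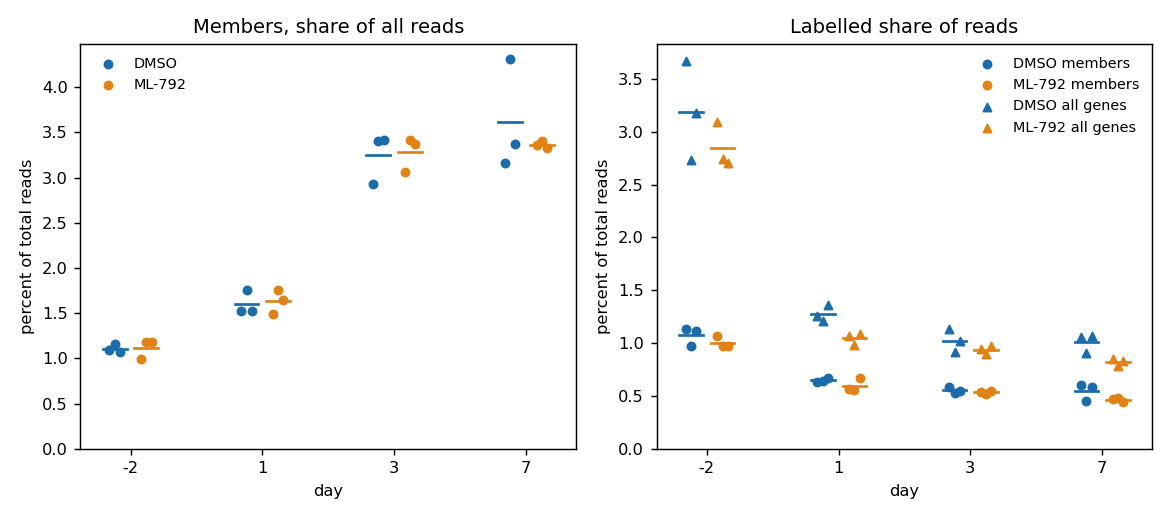
Left, the share of all reads held by the summed members in each library (percent of total reads) by day, in DMSO and ML-792, and right, the labelled share of the members' reads (circles) and of all genes' reads (triangles), each point a library and each line a mean of 3. The members' share rose from 1.11% to 3.61% in DMSO, with library B of day 7 highest at 4.31%, and their labelled share lay below that of all genes at each day.

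Genes were then tested one by one with edgeR's quasi-likelihood test over the 12 DMSO libraries, and a gene was called where its p, adjusted by Benjamini-Hochberg over all entries, lay under 0.01. At day 1, 3 of 77 members were higher than at day −2, where 8.01% of 12780 genes were, and 1 was lower, where 9.67% were. Without replicate B 8 of 78 members were higher at day 1 (9.29% of all genes), and without A or C 0 were (1.5% and 2.64%). With the replicate letter fitted as a block, 27 of 77 members were higher at day 1 (14% of all genes) and 1 was lower (13.6%). At day 3, 62 members were higher (18.6% of all genes) and 1 was lower (19.2%). At day 7, 66 were higher (20.2%) and 0 were lower (19.6%). Between adjacent days, 39 were higher at day 3 than at day 1 (11.9%) and 4 at day 7 than at day 3 (6.45%). Against day −2 the median log2 fold change of the members on days 1, 3 and 7 was 0.47, 1.47 and 1.66, where those of all genes were 0.05, 0.06 and 0.01. The count at day 3 fell to 37 without replicate A and to 34 without replicate C, and that of day 3 against day 1 was 9, 60 and 5 without A, B and C. These counts thus depend on which replicates were used, while the median at day 3 stayed between 1.38 and 1.58. Leaving out a letter also makes every group smaller, and without A or C fewer of all genes were called higher at day 1. The part of the smaller groups in the lower counts was not tested.

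**Figure D2:**
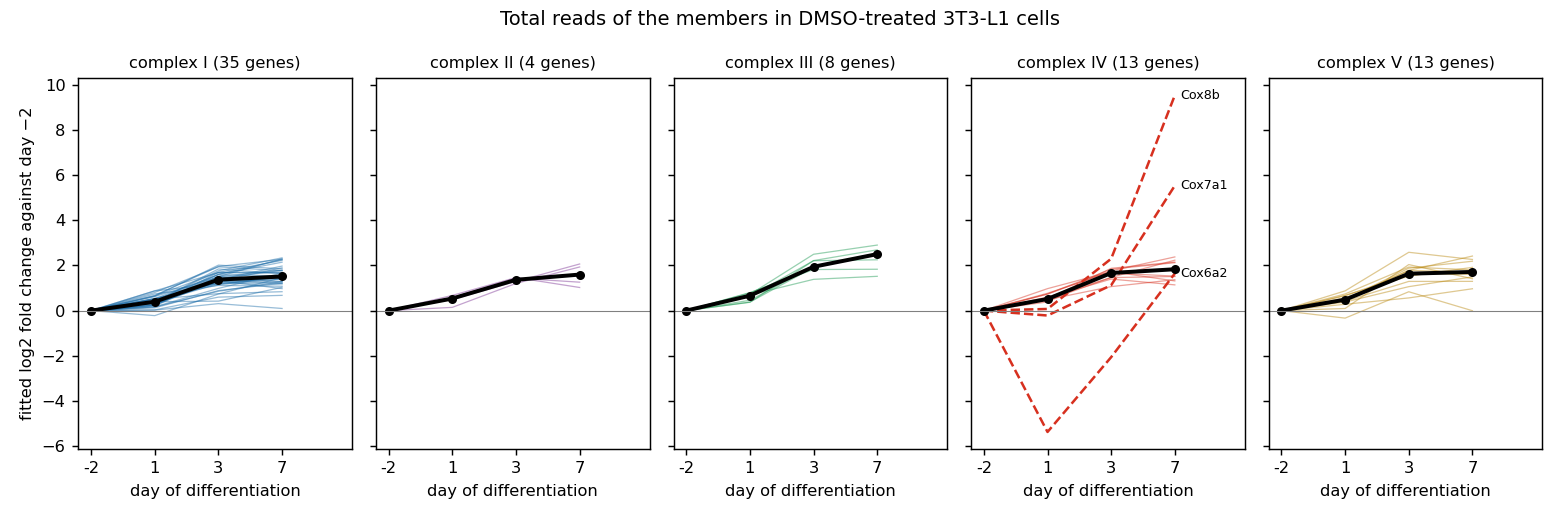
Fitted log2 fold change of total reads against day −2 in DMSO for each tested member (thin lines) and the median of each complex (black), over days of differentiation drawn at equal distances. The medians of complexes I to V reached 1.51, 1.60, 2.50, 1.83 and 1.71 at day 7, and Cox8b, Cox7a1 and Cox6a2 (dashed) left the band of the others.

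In complex I, which takes electrons from NADH, 32 of 35 tested subunit genes rose by day 7, with a median log2 fold change of 1.51. Ndufb9 went from 93.1, 115.5 and 102.1 CPM at day −2 to 407.9, 686.2 and 475.1 at day 7, and the 3 libraries of day 7 lay above those of day −2. That is a 5.06-fold rise (log2 2.34, SE 0.24, adjusted p = 1.14e-06). Ndufa9, an accessory subunit, went from 27.4, 41.8 and 31.4 to 130.7, 203.1 and 160.9 CPM, 4.92-fold higher (SE 0.28 in log2, adjusted p = 8.92e-06). The members that did not pass at day 7 were Ndufa12 (log2 0.97), Ndufa13 (0.68) and the sparsely counted Ndufs5 (0.09, SE 0.69), whose sign changed without replicate A (−0.27).

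Complex II, the succinate dehydrogenase, is shared with the TCA cycle and has 4 nuclear subunits, of which 3 passed at day 7. Sdha, the flavoprotein that oxidises succinate, had 124.4, 124.2 and 128.3 CPM at day −2 and 497.9, 532.1 and 542.0 at day 7. It rose 4.18-fold (log2 2.07, SE 0.17, adjusted p = 1.65e-07), and it was also higher at day 7 than at day 3 (log2 0.77, SE 0.17, adjusted p = 0.00489). The iron-sulfur subunit Sdhb rose 3.82-fold (log2 1.93, SE 0.19, adjusted p = 6.85e-07). Sdhd, one of the membrane anchors, did not pass (log2 1.02, SE 0.57, adjusted p = 0.162). Its day 7 libraries held 137.5, 17.0 and 126.5 CPM and those of day −2 39.8, 75.4 and 22.8, so library B stood apart, and without replicate B the log2 fold change was 2.04 and passed.

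Complex III passes electrons from ubiquinol to cytochrome c, and 8 of its 8 genes rose by day 3 and by day 7, with the highest median of the 5 complexes at day 7 (log2 2.50). The differences between complexes were not tested. Uqcr11, a small subunit, went from 35.6, 40.8 and 34.0 CPM to 155.1, 495.5 and 175.6, a 7.48-fold rise (log2 2.90, SE 0.37, adjusted p = 1.3e-05), and library B of day 7 was again well above A and C. Without replicate B its log2 fold change was 2.22. Uqcrq rose 6.46-fold, from 156.7, 127.8 and 148.4 to 777.1, 1185 and 826.2 CPM (SE 0.20 in log2, adjusted p = 5.17e-08). Uqcrh, the hinge protein, was among the 3 members already higher at day 1 (log2 0.80, SE 0.20, adjusted p = 0.00956). The lowest value of the complex was that of Uqcrb (log2 1.52, SE 0.36, adjusted p = 0.00314), which no longer passed without replicate A or C.

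Complex V, the ATP synthase, had 10 of 13 tested genes higher at day 7 (median log2 1.71). Atp5b, the catalytic beta subunit, went from 331.8, 426.5 and 315.2 to 1369, 2894 and 1468 CPM, 5.34-fold higher (log2 2.42, SE 0.31, adjusted p = 1.35e-05). The c subunit of the rotor ring is made from 3 genes, whose differences in change were not tested. Atp5g3 began at 539.2, 485.0 and 480.4 CPM on day −2. It reached 954.2, 979.1 and 806.5 on day 1, then 2905, 3180 and 2958 on day 3, and held 2225, 2931 and 2057 on day 7. Its groups of days −2, 1 and 3 did not overlap, and it passed at day 1 (log2 0.87, SE 0.17, adjusted p = 0.00155) and at day 7 (4.81-fold, adjusted p = 7.6e-08). Atp5g1 passed at day 3 (log2 2.04, SE 0.46, adjusted p = 0.00216) but not at day 7 (1.41, SE 0.46, adjusted p = 0.02). Without replicate B it was 2.14 at day 7 and passed, and its mean was 112.7 reads per library. Atp5g2 held 0.284 to 0.496 CPM at day 7 and 0.393 to 0.760 at day −2 and was not tested there. Atp5h did not pass at day 7 (log2 −0.01, SE 0.47), with 1.27, 2.31 and 3.70 CPM at day −2 and 2.45, 2.10 and 2.67 at day 7. Its sign turned without replicate B (0.02) or C (0.34).

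Complex IV, the cytochrome c oxidase, had 12 of 13 tested genes higher at day 7 (median log2 1.83). Its ubiquitous isoforms moved with the rest of the chain. Cox6a1 went from 357.9, 220.5 and 409.5 CPM at day −2 to 1429, 1882 and 1794 at day 7, 5.20-fold higher (log2 2.38, SE 0.29, adjusted p = 7.8e-06). Cox8a rose 4.70-fold (SE 0.39 in log2, adjusted p = 0.000263), Cox6b1 4.43-fold (SE 0.22, adjusted p = 1.62e-06) and Cox7a2 4.36-fold (SE 0.24, adjusted p = 3.31e-06). Without replicate B the log2 fold change of Cox8a was 1.58, against 2.23 with all replicates, and it still passed. Cox7b rose 3.56-fold (SE 0.46, adjusted p = 0.00445), a call that was lost without replicate A or C. Ndufa4, a complex IV subunit once placed in complex I, was higher at day 1 (log2 0.97, SE 0.24, adjusted p = 0.00745) and at day 7 (1.31, SE 0.24, adjusted p = 0.000346). Cox7c, whose low counts are uncertain, was the 1 gene that did not pass (log2 1.14, SE 0.42, adjusted p = 0.0366).

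The muscle isoforms Cox8b, Cox7a1 and Cox6a2 are described apart from the rest of the complex. Cox8b and Cox7a1 rose mostly after day 3. Cox8b, at chr7:140898942-140898987 (mm10, minus strand, 3′UTR), had 2, 1 and 0 reads at day −2, and 427, 1113 and 460 at day 7. In CPM it stood at 0.180, 0.257 and 0.332 at day 3 and at 26.2, 63.2 and 28.5 at day 7, so that the groups were far apart, with library B highest. Pooled over the 3 libraries, 2000 reads at day 7 stood against 3 at day −2, a ratio of 757 after scaling with an exact 95% counting interval of 258 to 3671 (edgeR adjusted p = 9.02e-09). Cox8b passed at day 7 against day 3 as well (log2 7.24, SE 0.51, adjusted p = 3.63e-07). Cox7a1, at chr7:30185968-30186030 (mm10, plus strand, 3′UTR), had 0.568, 0.673 and 0.237 CPM on day −2. It stood at 0.421, 1.54 and 1.33 on day 3 and reached 19.5, 28.6 and 21.5 by day 7. It rose 46.5-fold from day −2 to day 7 (log2 5.54, SE 0.45, adjusted p = 1.27e-07), of which log2 4.41 (SE 0.42) lay between days 3 and 7 (adjusted p = 6.49e-06).

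Cox6a2, at chr7:128205435-128205728 (mm10, minus strand, 3′UTR), fell first and rose later. It had 2.23, 3.22 and 3.51 CPM on day −2 and then 0.0511, 0.147 and 0 on day 1. By day 3 it held 1.20, 0.257 and 0.663, and by day 7 6.19, 11.7 and 10.1. The 3 DMSO libraries of day 1 lay below those of every other day. It was the 1 member lower at day 1 (log2 −5.38, SE 0.69, adjusted p = 4.92e-05) and at day 3 (−2.06, SE 0.51, adjusted p = 0.00425), with 192 pooled reads at day −2 against 4 at day 1, a ratio of 45.7 (exact 95% counting interval 17.6 to 169.5). At day 7 it was 3.13-fold above day −2 (log2 1.65, SE 0.45, adjusted p = 0.00773), and that call was lost when any 1 of the replicate letters was left out.

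**Figure D3:**
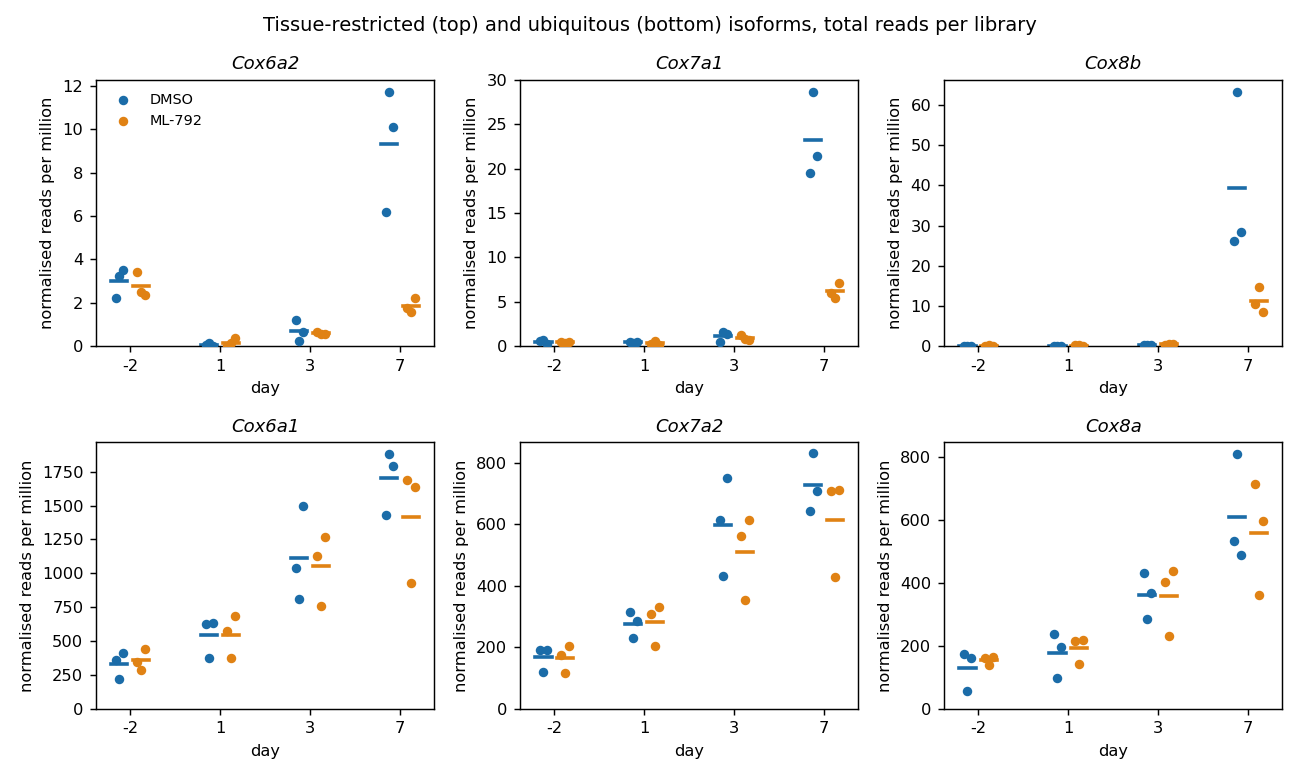
Normalised reads per 1000000 (CPM, linear axis, total reads) in each library by day for the muscle isoforms Cox6a2, Cox7a1 and Cox8b (top) and their ubiquitous counterparts Cox6a1, Cox7a2 and Cox8a (bottom), in DMSO and ML-792, with lines for the means of 3. At day 7 the 3 ML-792 libraries of each muscle isoform lay below the 3 DMSO libraries, whereas the libraries of Cox6a1, Cox7a2 and Cox8a overlapped.

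Markers of skeletal and heart muscle were read beside these isoforms. Myh1, Myh4 and Myh7, which define muscle fibres, had 0 reads over the 24 libraries, Myod1 1, Myh6 3, Ckm 5 and Myog 7. Mb had 205 reads, Tnnt2 646 and Acta1 1213. The summed level of the 10 muscle markers at day 7 was 3.80 to 5.05 CPM in DMSO and 2.01 to 5.96 in ML-792. Of the 3 muscle markers that passed the filter, Mb (log2 7.94) was higher and Tnnt2 (−4.40) lower at day 7 than at day −2, and Acta1 (0.10) did not pass.

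Of the 6 names outside the 5 complexes 4 were tested. The pseudogene Atp5c1-ps (log2 1.835) was the 1 that rose by day 7, where 20.2% of all genes did. The median log2 fold change of the 4 was 0.36, and the difference from the subunits was not tested. Cox7a2l, which joins complexes III and IV, did not pass (log2 0.30, SE 0.27, adjusted p = 0.392), nor did Atp5s (0.19) and Atp5sl (0.43).

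Genes that work with the subunits are given for comparison, from lists fixed with earlier results of these data known. Of all genes, 20.2% were higher and 19.6% lower at day 7 than at day −2. Of the 6 subunit and electron carrier genes tested that the naming rule misses, 4 were higher at day 7 than at day −2, namely Cycs (cytochrome c, log2 3.58), Cyc1 (2.92), Ndufab1 (2.41) and Cox4i1 (2.2). Atpif1, the inhibitor of the ATP synthase, was lower (−0.85). Of 48 tested assembly factors 28 were higher and 0 lower (median 1.02). Of 18 enzymes of the TCA cycle and the pyruvate dehydrogenase 17 were higher and 0 lower (median 2.14). The regulators of mitochondrial biogenesis were mixed, with 6 higher and 2 lower of 16. Ppargc1b (4.87) and the nuclear receptor Esrra (2.15) were among those higher, and the coactivator Ppargc1a was lower (−1.85, adjusted p = 4.24e-05).

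The second comparison asked whether ML-792 changed the genes at each day, with all 24 libraries in 1 fit and an adjusted p under 0.1 as the threshold. The subunit genes as a whole were not called. At day −2, 0 of 79 tested members passed, where 0% of 13274 genes did. At day 1, 0 members passed, where 7.9% of genes did, and at day 3 0, where 15.6% did. By edgeR's unadjusted p under 0.05 the counts at these days were 1, 1 and 0, and by DESeq2 1 member was called at day 1. At day 7, 3 members were lower, where 5.45% of genes were, and 0 were higher, where 6.35% were. These were Cox6a2, Cox7a1 and Cox8b. With the replicate letter fitted as a block, 10 members were lower at day 7 (11% of all genes) and 2 were higher (10.6%). A failure to pass is no evidence of equality, and the 95% intervals give what can be said: they lay within log2 −1 to 1 for 66, 64, 66 and 61 of the 79 members at days −2, 1, 3 and 7.

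At day 7 Cox6a2 held 6.19, 11.7 and 10.1 CPM in DMSO and 1.74, 1.59 and 2.22 in ML-792 (log2 −2.33, 95% interval −3.34 to −1.32, SE 0.49, adjusted p = 0.00318). Cox7a1 held 19.5, 28.6 and 21.5 against 6.03, 5.40 and 7.11 (log2 −1.91, −2.66 to −1.16, SE 0.36, adjusted p = 0.00118). Cox8b held 26.2, 63.2 and 28.5 against 10.6, 14.7 and 8.51 (log2 −1.80, −2.57 to −1.04, SE 0.37, adjusted p = 0.00267). In all 3 the highest ML-792 library lay below the lowest DMSO library, and the 3 were called under every alternative run for total reads, each left-out replicate included. In ML-792 the 3 genes still stood above their levels of day 3, with Cox8b at 0.356 to 0.622 CPM at day 3, Cox7a1 at 0.677 to 1.31 and Cox6a2 at 0.541 to 0.653. Cox6a2 in ML-792 lay lower at day 7 than at day −2, where it held 2.35 to 3.43 CPM.

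The other 76 members lay between log2 −0.44 and 1.06 at day 7, with a median of −0.09, where that of all genes was 0.01. The ubiquitous counterparts gave −0.26 for Cox6a1 (95% interval −0.87 to 0.34), −0.24 for Cox7a2 (−0.78 to 0.30) and −0.13 for Cox8a (−0.89 to 0.63). Sdha gave −0.15 (−0.47 to 0.16), Atp5b −0.13 (−0.69 to 0.44), Ndufa9 −0.05 (−0.57 to 0.47) and Uqcrq −0.37 (−0.76 to 0.02). Without replicate B 8 members were called at day 7, the 3 isoforms with Ndufa1, Ndufa4, Ndufa5, Ndufc2 and Uqcrh, and in that fit 4 of the 79 were higher and 4 lower, where 9.11% and 6.07% of all genes were. The median of the 79 members was −0.10 with all replicates and turned to 0.07 without replicate B. The members' share of all reads was 3.61% ± 0.61 in DMSO and 3.36% ± 0.04 in ML-792 at day 7. It differed by 0.0117, 0.0311, 0.0362 and −0.252 percentage points from DMSO at the 4 days in order (exact permutation p = 0.8, 0.9, 0.8 and 0.8, where 3 against 3 libraries cannot go below 0.1), and by 0.0748 points at day 7 without replicate B.

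**Figure D4:**
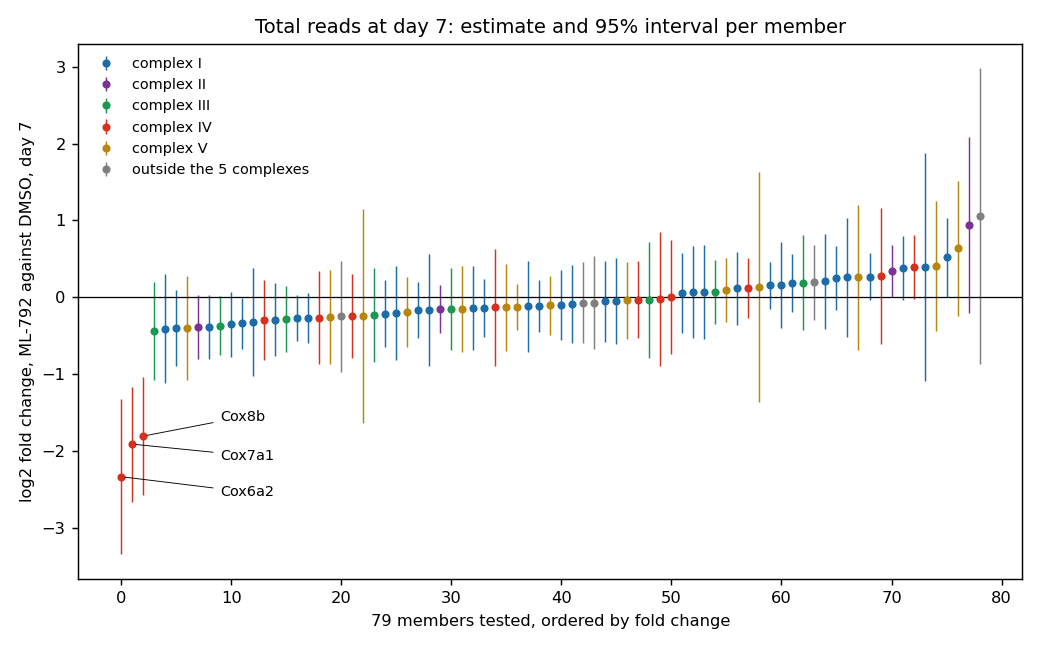
Log2 fold change of total reads in ML-792 against DMSO at day 7 for the 79 tested members in order of the estimate, with 95% intervals and colours for the complexes. Cox6a2, Cox7a1 and Cox8b lay at −2.33, −1.91 and −1.80, below the other 76 members, which ran from −0.44 to 1.06.

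Whether the effect of ML-792 differed between days was tested as the interaction of day and treatment. The sample labels do not give how long each group was held in ML-792. Day and length of exposure therefore cannot be told apart in this test. In total reads 2 of 79 members passed, where 12% of all genes did: Cox8b (adjusted p = 0.031) and Cox6a2 (0.0477). Cox7a1 did not (0.123), although DESeq2 and the edgeR fits without a filter and with 1 entry per gene symbol called it. Cox8b no longer passed without replicate A, B or C (0.356, 0.222 and 0.115), and Cox6a2 no longer passed without A or C (0.205 and 0.478). For Cox8b the ML-792 and DMSO libraries of days −2, 1 and 3 held at most 0.622 CPM, which is 0 to 9 reads.

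Of the other genes known from heat-producing adipocytes, 4 were tested, and in ML-792 at day 7 3 were higher and 1 lower. The lower one was Cidea, a lipid droplet protein, which had 40.3 to 52.3 CPM in DMSO and 9.03 to 13.9 in ML-792 (log2 −2.06, SE 0.40, adjusted p = 0.00134). Ppargc1a was higher, at 21.0 to 34.9 CPM against 7.11 to 8.37 (log2 1.84, SE 0.25, adjusted p = 2.37e-05), and so were Elovl3 (2.21) and Dio2 (4.14). Ucp1, the uncoupling protein of brown fat, had 13 reads over the 24 libraries. Of all genes, 6.35% were higher and 5.45% lower in ML-792 at day 7. Of the assembly factors 1 of 48 was lower and 0 higher at day 7, and of the TCA cycle enzymes 1 of 18 was higher and 0 lower. At the same time 3 of 12 adipocyte markers were higher and 1 lower in ML-792, with a median log2 fold change of 0.02. Their summed levels were 52179 to 53320 CPM against 39514 to 44009, and Lpl and Fabp4 had the most reads among them. Of 11 pre-adipocyte markers 5 were higher and 1 lower (median 0.69). The part of these shifts in the values of the 3 isoforms was not tested.

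The third comparison used labelled reads, taken here to stand for RNA made in the 45 min before harvest. The subunit genes carried few of them. Conversions from other sources also count as labelled, and they were not subtracted. Among genes with at least 1000 reads, the 1st percentile of the labelled share was taken in each library. Its mean in DMSO was 0.216%, 0.058%, 0.048% and 0.075% at days −2, 1, 3 and 7. Of the members' reads 1.07% ± 0.09 (SD, n = 3) were labelled at day −2 and 0.648% ± 0.019, 0.556% ± 0.029 and 0.547% ± 0.086 at days 1, 3 and 7, where those of all genes were 3.19%, 1.27%, 1.02% and 1.01%. The later DMSO libraries lay 0.490 percentage points below day −2 for the members and 2.09 below for all genes, each with p = 0.009091 by the same exact permutation test (0.04546 adjusted over 5). Over the 67 members with at least 500 reads in each group, the median labelled share was 0.828%, 0.500%, 0.421% and 0.408% by day. The medians over all genes with that many reads were 2.36%, 1.04%, 0.798% and 0.853%, and 2, 8, 8 and 6 of the 67 members lay above them. The members' entries were also shorter than those of other genes (median 146 against 1124 bases), and the part of this in the shares was not tested.

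A few members carried labelled shares above those of most others at the later days. Ndufs6, an accessory subunit of complex I that binds zinc, had 12.4% labelled reads over all libraries with a range of 10.05% to 16.7% between libraries. Sdhc had 2.96% (1.67% to 3.79%). Atp5g1 had 6.51% and Cox5b 6.35%, but on few reads, with ranges of 0% to 15.0% and 0% to 14.5%. The groups of Cox5b ran from 2.24% in DMSO at day 1 to 9.88% in ML-792 at day 3. With no library free of 4-thiouridine used here, conversions that come from a base difference from mm10 cannot be told apart from new RNA in these genes. Without these 4 genes the members' labelled share was 0.958%, 0.542%, 0.457% and 0.443% by day.

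Labelled counts were tested with the library sizes of the total reads. Against day −2, 0 of 56 tested members passed at day 1, where 0.691% of 5643 genes were higher and 19.6% lower (4 members had an unadjusted p under 0.05 in edgeR, and 0 passed in DESeq2). At day 3, 5 were higher (2.27% of all genes), at day 7 5 were higher (2.27%), and 0 were lower at either day, where 33.1% and 30.1% of all genes were. Against day 1, 3 were higher at day 3 (1.72%), and 0 were higher at day 7 than at day 3 (0.248%, with 3 at an unadjusted p under 0.05). The members' median log2 fold change was −0.23, 0.63 and 0.83 at days 1, 3 and 7, where those of all genes were −1.13, −1.53 and −1.43. When labelled counts were scaled by the labelled reads themselves, the median of all genes at day 7 moved to −0.23, that of the members to 1.96, and 32 members were called, where 7.23% of 4521 genes were higher. Under both scalings the members' median lay above that of all genes. Their share of labelled reads rose from 0.375% at day −2 to 0.816%, 1.78% and 1.93% at days 1, 3 and 7.

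The 5 members called at day 7 come from 4 complexes. Atp5d, the delta subunit of the ATP synthase, had 26, 8 and 19 labelled reads at day −2 and 38, 62 and 72 at day 7 (log2 2.09, SE 0.50, adjusted p = 0.000859). Ndufb9 had 16, 12 and 2 and then 29, 35 and 25 (log2 1.94, SE 0.62, adjusted p = 0.00982). Ndufs6 had 181, 118 and 207 and then 374, 443 and 383 (log2 1.62, SE 0.31, adjusted p = 6.63e-05). Their groups did not overlap in reads. Cox8a had 50, 21 and 31 and then 49, 100 and 67 (log2 1.46, SE 0.44, adjusted p = 0.0062), and Sdhc 28, 25 and 37 and then 63, 50 and 65 (log2 1.36, SE 0.43, adjusted p = 0.00976). The reads of Cox8a overlapped between the days. Leaving out a replicate left 1 or 2 members called. For Ndufs6 and Sdhc the labelled share stayed within 11.3% to 14.0% and 2.49% to 3.58% in the 8 groups, so that their labelled reads moved with the total reads. In DMSO the labelled shares at days −2 and 7 were 0.436% and 0.408% for Atp5d. They were 0.449% and 0.337% for Ndufb9 and 1.19% and 0.701% for Cox8a. Whether all labelled reads of these 5 genes are new RNA could not be checked. The muscle isoforms had too few labelled reads to be tested: in DMSO at day 7 Cox8b had 4, 6 and 3, Cox7a1 0, 2 and 2 and Cox6a2 0, 1 and 0.

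**Figure D5:**
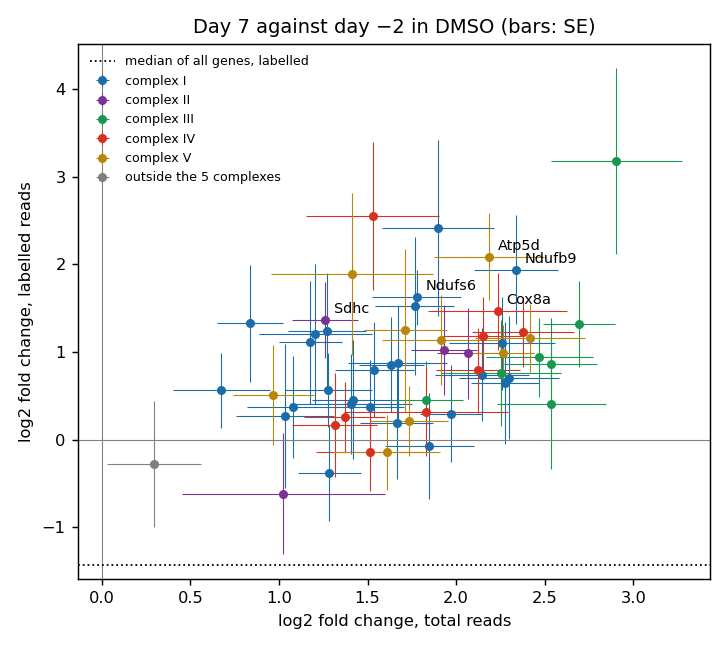
Log2 fold change of day 7 against day −2 in DMSO for the members tested in both kinds of reads, with total reads on the x axis and labelled reads, scaled by the total library sizes, on the y axis, bars giving 1 SE. Most members lay above 0 on both axes and all of them above the median of all genes in labelled reads (dotted, −1.43), and the 5 labelled genes were called.

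In ML-792, 0 of 56 members were called in labelled reads at days −2, 1, 3 and 7, where 0%, 1.01%, 1.17% and 0.982% of 6214 genes were. The numbers of members with an unadjusted p under 0.05 in edgeR were 2, 3, 1 and 3, and DESeq2 called 0, 1, 0 and 1. The members' medians were −0.10, −0.16, −0.07 and −0.36, and those of all genes −0.19, −0.30, −0.10 and −0.37. The interaction called 0 members (0.29% of genes, 2 members at an unadjusted p under 0.05, and 1 by DESeq2). Wide intervals limit this comparison: 95% intervals lay within log2 −1 to 1 for 3 of the 56 members at day 7. The members' labelled share differed by −0.0714, −0.0522, −0.0207 and −0.0805 percentage points between ML-792 and DMSO at the 4 days (exact permutation p = 0.3, 0.3, 0.4 and 0.3, with a smallest possible p of 0.1). At day 7 Cox8b had 1, 1 and 1 labelled reads in ML-792, against 4, 6 and 3 in DMSO, and Cox7a1 had 0 in each, against 0, 2 and 2. These reads are too few for a comparison.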

How the data were processed

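The members and gene lists were chosen with earlier results of these data known. The authors aligned QuantSeq 3′ reads to mm10 with SlamDunk, took reads with at least 1 T to C conversion as labelled, and deposited raw counts of total and of labelled reads per RefSeq 3′UTR entry, without normalization. Base calling used bcl2fastq 2.17.1.14, from the submitters' processing notes. Libraries were assigned by their titles, and 6 columns in each table match no sample and were not used. Counts were fitted with edgeR 4.0.16 in R 4.3.3 across all entries past filterByExpr (minimum count 10, minimum total 15) with TMM factors, robust quasi-likelihood tests and Benjamini-Hochberg adjustment over all tested entries. The time course used the 12 DMSO libraries (adjusted p under 0.01), and ML-792 and the interaction all 24 (under 0.1). For labelled counts the effective sizes came from the total reads, as the study did with its size factors. Folds are fitted values, and levels are counts per 1000000 effective reads. A read may be counted in more than 1 entry where entries overlap, so each gene stands for its entry with the highest mean count.

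Named genes are, per complex, the 2 highest and the 1 lowest of day 7 against day −2, up to 3 highest and 3 lowest among called members for ML-792 and for labelled reads at day 7, the isoform genes, and those called in the interaction. Ndufa12, Ndufa13, Uqcrh, Atp5s, Atp5sl, Atp5j and others that complete a count were named after their values were seen. Shares of summed reads were compared by exact permutation tests in SciPy 1.17.1 under Python 3.11.15, and figures drawn with matplotlib 3.10.9. Alternatives were DESeq2 1.42.0, no filter, a single entry for each gene, a block for the replicate letter, each letter left out, labelled counts scaled by labelled reads, all 24 libraries for the time course, only the 6 libraries of a day, and entries over 30 percent labelled left out. The share without 4 members of high labelled share was added after seeing the data. Tested on simulated data for day 7 against day −2, the fit recovered 44% of genes changed by log2 1 and 100% by log2 2 among 12268 genes in total reads, and 42% and 94% among 5007 in labelled reads. The simulation gave every gene the same dispersion and changed only genes above a minimum mean count. Recovery for members with few labelled reads was therefore not measured. In the real data their median SE for this contrast was 0.545 in labelled and 0.271 in total reads. Replicates are biological per the study's methods. Counting intervals cover counting error only, since reads carry no molecular identifiers. Promoter sequences are RefSeq's, GRCm38.p6.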

Additional observations from a re-analysis of the deposited data

Results flagged for a closer look

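For Cox8b and Cox6a2 in total reads, the effect of ML-792 differed between days by edgeR's test of the interaction of day and treatment, with adjusted p of 0.03099 and 0.04769. For Cox8b the log2 fold change of ML-792 against DMSO at day 7 was −1.80, with at most 9 reads in a library before day 7. For Cox6a2 it was −2.33 at day 7. Cox6a2 had 51 to 74 reads in a library at day −2 but at most 20 at days 1 and 3, and the part of this in the test was not tested.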

How the results depend on the processing

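The rise of the members by day 7 and the 3 lower isoforms in ML-792 kept their direction under every alternative run, with 48 to 68 members called at day 7 when a replicate was left out (66 with all) and a median of 1.5 to 1.67. Leaving out a replicate changed the called members, in total reads, to between 1 and 9 at day 1 (4 with all), 34 and 63 at day 3 (63), 5 and 60 for day 3 against day 1 (39), and 2 and 10 for day 7 against day 3 (4). For ML-792 it gave 0 to 1 at day 1 (0), 0 to 2 at day 3 (0), 3 to 8 at day 7 (3), and 0 to 1 in the interaction (2), and the median of ML-792 at day 7 (−0.10) ran from −0.23 to 0.07. In labelled reads it gave 0 to 2 at day 1 (0), 0 to 3 at day 3 (5), 1 to 2 at day 7 (5) and 0 to 4 for day 3 against day 1 (3), with medians of 0.32 to 0.84 at day 3 and 0.73 to 0.99 at day 7. In total reads DESeq2 called 6 members higher and 1 lower of 77 at day 1, where 10.8% and 13.2% of all genes were. It called 7 higher for day 7 against day 3 (10.1%), 1 higher for ML-792 at day 1 (5.18%) and 3 in the interaction. Without a filter 13 of 83 were higher and 1 lower at day 1 (6.33% and 7.52%). In that fit 59 were higher for day 3 against day 1 (8.76%) and 7 for day 7 against day 3 (5.45%). It also had 1 higher for ML-792 at day 1 (2.43%) and 5 in the interaction. With 1 entry per gene 1 was higher and 1 lower at day 1 (7.52% and 11.3%), and 3 passed in the interaction. With all 24 libraries in the time course 9 were called at day 1. With only the 6 libraries of a day 1 was called for ML-792 at day 1. Counts in this section without a share of all genes show only how the calls vary. In labelled reads at day 7, DESeq2 called 10, no filter 2, 1 entry per gene 3 and all 24 libraries 10. DESeq2 also called 1 each for ML-792 at days 1 and 7 and in the interaction, and the 6 libraries of day 7 gave 1. Scaling labelled counts by labelled reads gave 1, 28 and 32 members at days 1, 3 and 7 and 6 for day 3 against day 1, with medians of 1.84 and 1.96 at days 3 and 7, and −0.09 for ML-792 at day 7. Of single genes, Atp5h (−0.01) was −0.36, 0.02 and 0.34 without A, B and C, and Ndufs5 (0.09) ran from −0.27 to 0.38 when a replicate was left out. Leaving out entries over 30 percent labelled moved no share by more than the spread. The causes of these changes were not tested.

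With the replicate letter as a block, which also called Cox7a1 in the interaction, 28 members were called at day 1, 63 for day 3 against day 1, 18 for day 7 against day 3, 2, 4 and 12 for ML-792 at days 1, 3 and 7, and 7 in the interaction in total reads, and 9 at day 7 and 1 for ML-792 at day 1 in labelled reads. The 28 were 27 higher and 1 lower of 77, where 14% and 13.6% of all genes were, and all 63 and 18 were higher, where 16.6% and 10.7% were. Of the 12, 10 were lower and 2 higher, where 11% and 10.6% of all genes were. Atp5h turned to 0.07 under the block. The letters were not taken to pair libraries: residuals of libraries with the same letter correlated at −0.175 to 0.528 in total reads (68 of 84 pairs over 0.1) and −0.031 to 0.205 in labelled reads (23 of 84), although 22 of 24 libraries correlated best with their own letter in each kind of read. For ML-792 against DMSO at day 7, the median SE of a member was 0.56 in labelled reads and 0.26 in total reads. The part of depth in this difference was not tested.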
